A study of Mus musculus with 4 samples.

Results

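IAPLTR1a_Mm is one of the named long terminal repeat (LTR) variants of the mouse intracisternal A-particle (IAP), and 806 loci whose repeat name was exactly IAPLTR1a_Mm were listed in the tables of LTR loci, of 6216 LTR loci listed in all. A further 26 IAPLTR1a_Mm loci were listed only in the tables of flanking intervals, which gave 832 loci of 7564 over the 3 kinds of LTR table. A locus without a read in any of the 4 libraries is not listed, so the number of annotated copies cannot be read from these data. RNA was sequenced from cultured C57BL/6J tail-tip fibroblasts of adult mice and from whole C57BL/6J embryos at E13.5. The fibroblasts were SV40-transformed lines according to the study's methods. Each tissue gave 1 WT library and 1 Lsh-/- library by the labels. The study's methods name WT embryos among the sequenced samples but elsewhere mention embryos heterozygous for Lsh, so a heterozygous control cannot be told apart from WT here, and WT is used as the labels give it. The Lsh-/- genotype was the only difference between the groups of a tissue named in the labels, and no group received a treatment. The number of embryos per library and the origin of each fibroblast line from 1 or several mice are not given in the sources used here.

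With 1 library per group, no difference between genotypes could be tested against replicates, no p-value is given, and every interval below covers counting error or the spread over loci only. Differences between WT and Lsh-/- therefore hold for these libraries. Total counts over the 6 tables of a library lay between 19216257 and 33904311. The labels were checked on Hells, the gene that encodes Lsh: intervals over its exons 11 and 12 held 937 reads in WT fibroblasts, 427 in WT embryos and 0 in both Lsh-/- libraries. Intervals over exons other than 11 to 13 held 5784 and 6132 reads in WT and Lsh-/- fibroblasts and 2187 and 2014 in the embryos. Hells RNA outside these exons was thus read in both genotypes. Intervals on chromosome Y around LINE-1 and other LINE loci held 12 reads in WT fibroblasts and 5402 in Lsh-/- fibroblasts, against 19973 and 20654 in the embryos, so the fibroblast pair also differed in chromosome Y reads. The tables hold no gene counts, and the tissues were not checked against marker genes.

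IAP elements are endogenous retroviruses that move by copying their RNA into DNA. A complete element carries an LTR at each end, with gag, pro and pol sequences between them. The 5' LTR holds the promoter and the 3' LTR the end of the transcript, and reverse transcription starts from a transfer RNA paired to the primer binding site just inside the 5' LTR. In somatic mouse cells IAP elements are known for dense CpG methylation and silence. Lsh is an SNF2-family chromatin remodelling protein needed for normal DNA methylation of repeats.

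The LTR is what gives these loci their name, and the first 300 bases of the 5' LTR are printed for 6 of them, read from the mm9 reference genome 5' to 3' on the strand of the element. For each width class and tissue the locus was the one with the largest count in the pair of libraries among those whose ends matched each other. Capitals mark CG dinucleotides, the sites that DNA methylation uses.
chr9:27604926-27605225, plus strand, element of 1537 bp, highest in its class in fibroblasts: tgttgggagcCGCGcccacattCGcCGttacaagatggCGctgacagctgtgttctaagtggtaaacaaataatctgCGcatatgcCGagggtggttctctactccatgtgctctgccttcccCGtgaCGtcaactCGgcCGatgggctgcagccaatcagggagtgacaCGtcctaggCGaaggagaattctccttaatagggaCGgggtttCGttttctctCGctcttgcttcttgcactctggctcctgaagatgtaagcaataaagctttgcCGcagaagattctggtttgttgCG
chr4:106068734-106069033, minus strand, element of 3658 bp, highest in its class in E13.5 embryos: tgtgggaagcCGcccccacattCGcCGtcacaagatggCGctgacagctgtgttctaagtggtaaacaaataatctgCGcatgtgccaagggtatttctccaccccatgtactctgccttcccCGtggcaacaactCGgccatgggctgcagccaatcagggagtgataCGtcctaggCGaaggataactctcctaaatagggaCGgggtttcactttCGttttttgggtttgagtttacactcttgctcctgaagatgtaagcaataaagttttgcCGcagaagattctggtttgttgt
chr1:171472551-171472850, plus strand, element of 6471 bp, highest in its class in fibroblasts: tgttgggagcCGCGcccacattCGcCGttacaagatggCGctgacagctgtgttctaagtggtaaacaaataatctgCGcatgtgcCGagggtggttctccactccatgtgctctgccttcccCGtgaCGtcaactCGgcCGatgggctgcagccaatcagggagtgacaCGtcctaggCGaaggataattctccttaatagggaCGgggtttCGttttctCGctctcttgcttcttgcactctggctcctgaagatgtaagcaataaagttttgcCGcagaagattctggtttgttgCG
chr5:6562135-6562434, plus strand, element of 4508 bp, highest in its class in E13.5 embryos: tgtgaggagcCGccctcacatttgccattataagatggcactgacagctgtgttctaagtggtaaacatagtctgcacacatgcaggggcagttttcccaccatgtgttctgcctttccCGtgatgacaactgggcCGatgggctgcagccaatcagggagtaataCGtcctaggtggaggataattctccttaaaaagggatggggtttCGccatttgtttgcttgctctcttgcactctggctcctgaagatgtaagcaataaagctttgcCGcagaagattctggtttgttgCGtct
chr17:92236119-92236418, minus strand, element of 7076 bp, highest in its class in fibroblasts: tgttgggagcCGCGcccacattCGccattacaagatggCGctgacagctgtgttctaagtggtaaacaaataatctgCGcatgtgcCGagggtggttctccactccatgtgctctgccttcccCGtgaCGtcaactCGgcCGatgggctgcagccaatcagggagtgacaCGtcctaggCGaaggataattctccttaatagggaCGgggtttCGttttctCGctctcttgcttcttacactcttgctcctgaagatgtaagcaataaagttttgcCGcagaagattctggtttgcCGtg
chr6:124924088-124924387, plus strand, element of 7102 bp, highest in its class in E13.5 embryos: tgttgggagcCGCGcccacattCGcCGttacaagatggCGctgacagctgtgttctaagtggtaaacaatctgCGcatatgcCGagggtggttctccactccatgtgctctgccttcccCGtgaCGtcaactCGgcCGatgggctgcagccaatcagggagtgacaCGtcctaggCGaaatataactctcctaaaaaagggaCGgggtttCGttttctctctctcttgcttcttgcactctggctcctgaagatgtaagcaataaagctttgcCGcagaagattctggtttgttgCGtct

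All 6 windows open with the tg that starts a retroviral LTR, as 98% of the 801 IAPLTR1a_Mm loci on the reference chromosomes did. The windows differ from one another by 6 to 56 base edits. The 2 with 12 and 7 CG dinucleotides, on chromosomes 4 and 5, are the poorest in CG, and the other 4 hold 17 or 18. They also lack the 8-base sequence TGACGTCA, which the other 4 contain as tgaCGtca. That palindrome is known as the full cyclic AMP response element, and it was searched on both strands, which are identical for it.

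A pair of matching LTRs was found in 790 of the 801 loci. The median 5' LTR was 337 bases long and held 20 CG dinucleotides, with a range of 7 to 24. Both LTRs of a locus were identical in 405 of the 790 loci (51.3%), and the least similar pair was 89.9% identical. Retroviral LTRs are copied from one template at insertion, so that they start out identical. TGACGTCA was present in the first 300 bases of 515 of the 790 LTRs (65.2%), and in 1.79% of 32851 mouse promoter windows of the same length from RefSeq (GRCm38). The polyadenylation signal AATAAA was present on either strand in 99.5% of the LTR windows and 19.6% of the promoter windows. A match is a description of letters and was not tested as a binding site.

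The 16 bases that start 2 bases after the 5' LTR fell mostly into a few forms, and the 2 most common are shown because they separate the loci further. Capitals mark the bases that differ.
Most common: tggtgccgaaTTccgg
Second most common: tggtgccgaaACccgg
These bases are the primer binding site, which in IAP elements pairs with phenylalanine transfer RNA. The first form was found in 419 loci (53.0% of the 790) and the second in 103 loci (13%). TGACGTCA stood in the 5' LTR of 389 of the 419 loci and of 50 of the 103. The 2 forms differed in width as well: the median width was 7071 bp for the first and 4667 bp for the second.

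IAPLTR1a_Mm elements came in 2 main sizes. Widths ran from 1537 to 9186 bp with a median of 7041.5 bp, and 368 of the 806 loci lay between 7000 and 7200 bp, about the length of a complete IAP. A second, broader group centred on shorter elements, with 128 loci between 4300 and 4700 bp. The class over 6500 bp held 455 loci (median 7100 bp), the class of 4000 to 6500 bp held 302 (median 4540.5 bp) and the class under 4000 bp held 49 (median 3586 bp). Both strands were represented, with 376 loci on the plus and 430 on the minus strand.

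**Figure D1:**
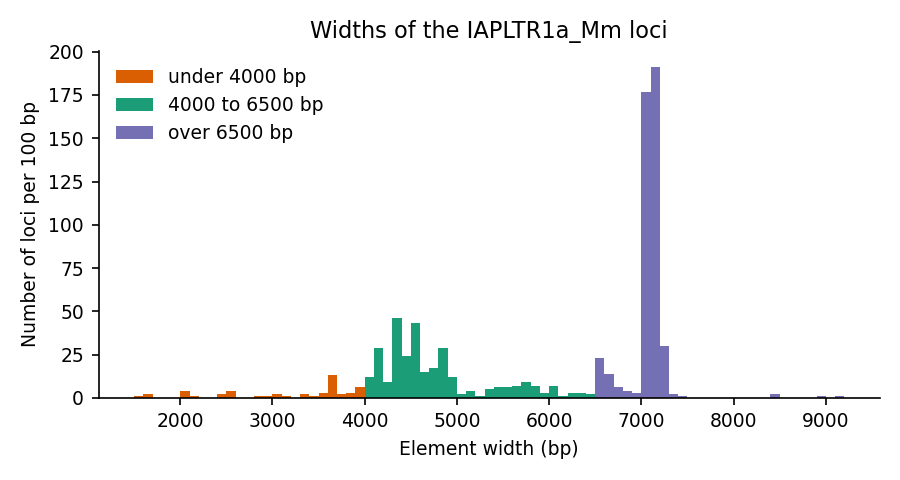
Number of IAPLTR1a_Mm loci per 100 bp of element width (x axis, bp), coloured by width class. The class over 6500 bp is concentrated between 7000 and 7200 bp (368 loci) and the class of 4000 to 6500 bp has its highest bars between 4300 and 4700 bp.

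Few bases of these elements can be told apart from their other copies. A position was called unique when the 50 bases that start there occur only once in the mm9 genome on either strand, and the median locus had 137 such positions, or 3.13% of all positions over the 801 loci. The median was 149 in the class under 4000 bp, 116 at 4000 to 6500 bp and 152 over 6500 bp. The authors kept uniquely mapped reads, so the counts come from these few positions and not from the whole element. Only listed loci were examined, and no unique position was found in 31 of them. These 31 held 91 reads in Lsh-/- fibroblasts and 148 in Lsh-/- embryos, where read pairs or longer reads could place them. Counts are therefore compared between libraries at the same locus, and between classes also per 100 unique positions.

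In WT cells IAPLTR1a_Mm elements gave almost no reads, and in Lsh-/- cells most listed loci did. In fibroblasts all 806 loci together held 321 reads in WT and 30662 in Lsh-/-, a 92.5-fold higher scaled total (95% counting interval 82.9 to 104). In embryos the totals were 743 in WT and 8296 in Lsh-/-, an 11.6-fold higher scaled total (10.8 to 12.5). Library sizes were scaled with trimmed mean of M-values (TMM) factors from the intervals around LINE-1 loci. Reads were found at 165 loci in WT fibroblasts, 773 in Lsh-/- fibroblasts, 244 in WT embryos and 679 in Lsh-/- embryos. The commonest pattern was reads in both Lsh-/- libraries and in neither WT library, at 358 loci (44.4%). Reads in all 4 libraries were found at 80 loci, and reads only in one or both WT libraries at 10 loci (7 in WT embryos alone, 2 in WT fibroblasts alone and 1 in both).

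Among the 777 loci with a read in the fibroblast pair, the scaled count was higher in Lsh-/- at 763 and lower at 14. Among the 695 loci with a read in the embryo pair, it was higher in Lsh-/- at 666 and lower at 29. Over all LTR loci it was higher in Lsh-/- at 3898 of 4969 in fibroblasts and 3385 of 4947 in embryos. For IAPLTR1_Mm these counts were 645 of 663 and 513 of 558. A locus is listed only when read, so loci read in Lsh-/- alone count as higher by construction. IAPLTR1a_Mm made up 0.426% of the reads on LTR loci in WT fibroblasts and 15.8% in Lsh-/- fibroblasts. In embryos the share was 0.606% in WT and 5.97% in Lsh-/-.

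**Figure D2:**
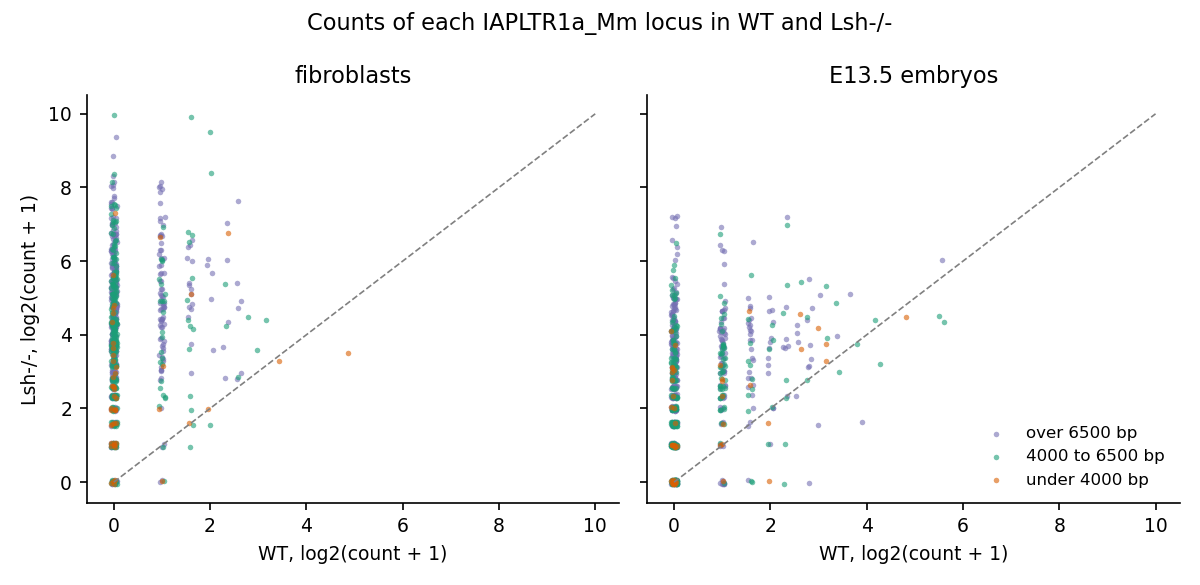
Count of each of the 806 IAPLTR1a_Mm loci in the WT (x axis) and Lsh-/- (y axis) library of each tissue, both as log2(count + 1), not scaled, with a small random shift so that equal counts can be seen; colours give the width class and the dashed line marks equal counts. Most points lie above the line in both tissues, with WT counts of up to 29 in fibroblasts and 46 in embryos against Lsh-/- counts of up to 986 and 150.

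A fold change was computed for each locus as log2 of the scaled Lsh-/- count over the scaled WT count, with a small prior count added to both, and a locus with at least 10 reads in the pair counts here as tested. The filter was passed by 524 of the 806 loci in fibroblasts and 280 in embryos. Most passed through the Lsh-/- count alone, since 390 of the 524 and 142 of the 280 had no WT read. Such a locus exceeds a log2 fold change of 5 by construction, so the counts past this limit describe the libraries and are not independent support. In fibroblasts 435 of 524 loci lay above 5 (83.0%, 95% Wilson interval 79.6 to 86.0), where 60.3% of all 2103 tested LTR loci did. In embryos 151 of 280 lay above 5 (53.9%, 48.1 to 59.7), where 26.5% of all 1795 tested LTR loci did. No locus lay below -5 in either tissue. The related IAPLTR1_Mm loci had shares of 83.5% and 54.9%, close to those of IAPLTR1a_Mm.

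The median log2 fold change was 7.31 in fibroblasts (7.23 to 7.51 over loci) and 6.37 in embryos (4.59 to 6.50), against 6.50 and 1.04 over all tested LTR loci. With a count of 0 set to 3, the reads that a count of 0 allows, the medians were 3.50 and 2.79, against 2.86 and 1.05. Loci with at least 1 WT read do not depend on the prior count in this way. In fibroblasts 134 tested loci had a WT read, with a median of 4.42, and 45 of them lay above 5. In embryos 138 had a WT read, with a median of 3.22, and 9 of them lay above 5.

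**Figure D3:**
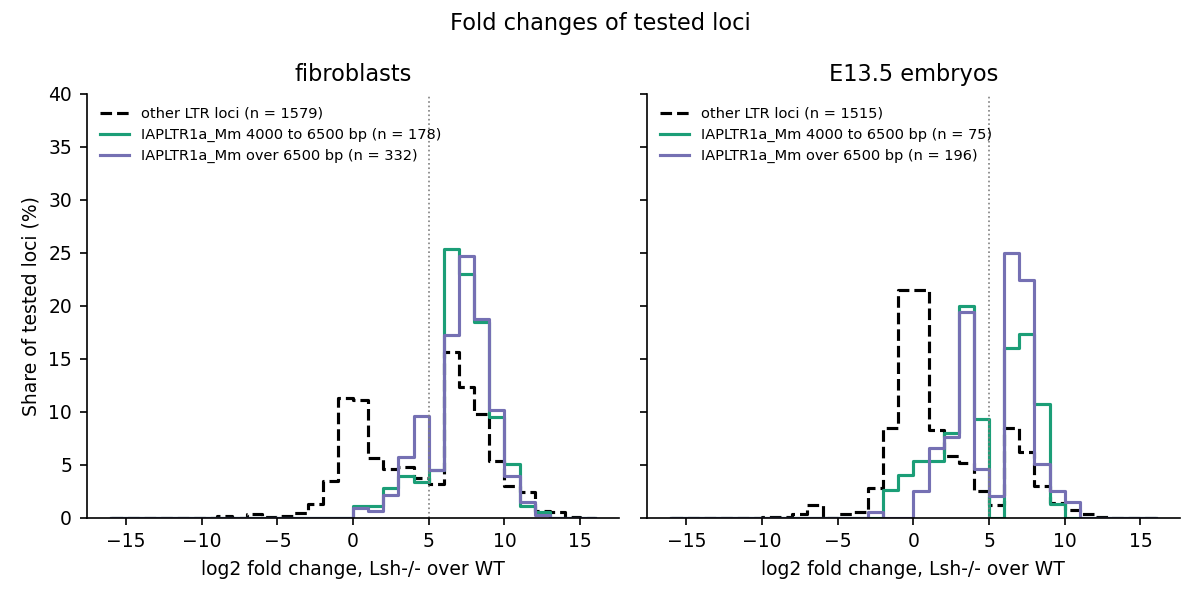
Share of tested loci (y axis, %) per unit of log2 fold change, Lsh-/- over WT (x axis), for IAPLTR1a_Mm of 2 width classes and for all other LTR loci (dashed), with the limit of 5 dotted. Other LTR loci have a peak near 0 that IAPLTR1a_Mm loci lack, and in embryos few loci lie between 5 and 6. The 14 and 9 tested loci under 4000 bp are not drawn.

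The reads of Lsh-/- fibroblasts were spread over many elements. The 77 loci with the most reads held 50% of them, the 10 highest held 17.4%, and 70 loci had at least 100 reads. The highest was chr1:171472551-171479021, an element of 6471 bp on the plus strand that lies 10956 bp from Nuf2, a kinetochore gene on the opposite strand. It had 986 reads in Lsh-/- fibroblasts and 0 in each of the other 3 libraries. With the WT fibroblast count of 0 set to 3 the ratio was 318. The lower counting limit, from the counts as they stand, was 258. The second, chr5:42671465-42677489, had 2 reads in WT and 944 in Lsh-/- fibroblasts, a ratio of 457 (126 to 3780), and 0 and 35 in WT and Lsh-/- embryos. These elements were picked for their counts in the fibroblast pair, which favours a peak in Lsh-/- fibroblasts. Their embryo counts were low or absent.

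The third, chr5:6562135-6566642, is the one whose CG-poor LTR is printed above. It had 3 reads in WT fibroblasts, 729 in Lsh-/- fibroblasts, 4 in WT embryos and 120 in Lsh-/- embryos. Its log2 fold change was 7.82 in fibroblasts and 4.92 in embryos. An LTR with 11 CG dinucleotides and no TGACGTCA thus stood among the 3 highest counts. The 3 next loci had no WT read in either tissue: chr17:92229343-92236418 had 655 reads in Lsh-/- fibroblasts and 13 in Lsh-/- embryos, chr8:102772649-102779267 had 477 and 17, and chr7:47033445-47037958 had 340 and 18. All 6 loci lay outside protein-coding genes of GENCODE M1 on mm9, as did 645 of all 806 loci (80%).

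In Lsh-/- embryos the highest count was 150, the 10 highest loci held 15% of the reads, and 8 loci had at least 100 reads. That count belonged to chr6:124924088-124931189, a 7102-bp element 8532 bp from Cops7a, which encodes a subunit of the COP9 signalosome. It had 4 reads in WT embryos, a ratio of 38.9 (14.9 to 145), and 1 and 29 reads in WT and Lsh-/- fibroblasts. A further 3 loci had no WT embryo read, namely chr17:38673289-38679879 with 146 reads in Lsh-/- embryos, chr7:31712793-31719333 with 144 and chr17:47215030-47222096 with 139. The element on chromosome 7 lies 3593 bp from Hamp2, a gene of the hepcidin family on the same strand. chr13:33529535-33536617 had 1 and 125 reads in WT and Lsh-/- embryos, and chr14:4535271-4542358 had 0 and 125. None of these 6 loci exceeded 4 WT reads in embryos, and all were read in Lsh-/- fibroblasts as well, with 29 to 254 reads.

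The ratio of Lsh-/- to WT totals was close in the 2 larger width classes in fibroblasts, was larger over 6500 bp than at 4000 to 6500 bp in embryos, and was smallest under 4000 bp in both tissues. In fibroblasts the summed counts were 171 in WT and 19124 in Lsh-/- over 6500 bp, 96 and 10850 at 4000 to 6500 bp, and 54 and 688 under 4000 bp. The scaled totals were 108-fold higher (93.2 to 127), 109-fold higher (89.5 to 135) and 12.3-fold higher (9.34 to 16.6) in Lsh-/-, in that order. In the shortest class 2 loci held 72.2% of the WT reads, and without them its ratio was 43.2 (26.0 to 77.6). In embryos the summed counts were 363 and 5711 over 6500 bp, 301 and 2348 at 4000 to 6500 bp, and 79 and 237 under 4000 bp. The ratios of scaled totals were 16.3 (14.7 to 18.2), 8.10 (7.18 to 9.16) and 3.11 (2.40 to 4.07). At 4000 to 6500 bp 2 loci held 29.9% of the WT embryo reads, and without them the ratio was 11.4 (9.86 to 13.1). Over 6500 bp 1 locus held 12.4% of them, and without it the ratio was 18.4 (16.5 to 20.7). The counting intervals of these 2 classes were separate in embryos with and without these loci, but they do not cover the spread over loci. The left-out loci were picked by their WT count, so each ratio rises without them by construction. None of those picked in embryos lay under 4000 bp.

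The medians of the 2 larger classes had overlapping intervals in fibroblasts. In embryos the overlap depended on which loci were kept, and the size of the difference on how a count of 0 was handled. In fibroblasts the median log2 fold change was 7.44 over 6500 bp (332 loci) and 7.23 at 4000 to 6500 bp (178 loci), a difference of 0.21 with an interval of -0.27 to 0.61 from the ends of the class intervals. In embryos the medians were 6.37 (196 loci) and 4.61 (75 loci), a difference of 1.75 with an interval of -1.12 to 3.26. On the same loci this difference was 0.04 (-0.45 to 1.09) with a prior count of 1. With a count of 0 set to 3 it was 0.18 (-0.74 to 0.64). With the main prior count the interval lay above 0 over all 695 loci with a read in the embryo pair (0.56, 0.30 to 1.71). It also did over the 521 loci with at least 100 unique positions (1.59, 0.30 to 2.19), an alternative chosen after seeing the data. Under 4000 bp only 14 loci were tested in fibroblasts, with a median of 6.57, and 9 in embryos, with a median of 1.32. Per 100 unique positions the Lsh-/- fibroblast count was 20.1 over 6500 bp, 25 at 4000 to 6500 bp and 6.14 under 4000 bp. The Lsh-/- embryo count was 5.96, 5.41 and 2.01 in the same order. The 2 larger classes thus had similar counts per unique position, and the shortest class the lowest in both tissues.

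Elements picked for large counts in the shortest class differed from one another in their ratios. The shortest of all 806, chr9:27604926-27606462, is a 1537-bp element in an intron of Opcml, on the strand of that cell adhesion gene. It had 0 and 152 reads in WT and Lsh-/- fibroblasts and 0 and 12 in the embryos, from 28 unique positions. chr16:16025356-16027416, of 2061 bp in an intron of 2310008H04Rik, had 4 and 103 reads in the fibroblasts and 8 and 9 in the embryos. In the embryos its counts were almost equal (ratio 1.17, 0.400 to 3.48). The 3831-bp element chrY_random:16407310-16411140, which overlaps a listed IAPLTR3 locus, had 2 and 34 reads in the fibroblasts and 5 and 23 in the embryos. Its fibroblast counts stand beside the 12 and 5402 chromosome Y reads around LINE loci in WT and Lsh-/- fibroblasts. Among the 2 larger classes, chr1:84992472-84997138 had 2 and 113 reads in the fibroblasts and 1 and 110 in the embryos, and lies in an intron of C130026I21Rik on the same strand.

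The share of loci in genes was larger among those with WT reads, a difference that was not tested. Of all 806 loci, 156 (19.4%) overlapped a protein-coding gene, 144 of them in introns only, and 114 of the 156 lay on the strand opposite to the gene. Of the 40 loci with at least 5 WT reads in a tissue, 20 (50%) overlapped a gene, 15 of them on the opposite strand. In fibroblasts the loci in genes held 157 WT and 3683 Lsh-/- reads, a ratio of scaled totals of 22.7 (19.4 to 26.8). Those outside genes held 162 and 26812, a ratio of 160 (137 to 188). In embryos the ratio was 5.10 (4.52 to 5.77) in genes and 16.5 (15 to 18.3) outside. WT reads per kb of element in fibroblasts were 0.173 in genes and 0.0417 outside. Whether the counting used the strand of the reads is not stated, so that RNA of the host gene and of the element cannot be told apart at these loci.

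The 3 loci with the largest WT fibroblast counts had fibroblast ratios from 0.334 to 2.42. They were picked by the WT count, which favours low ratios. chr1:58806361-58808898, in an intron of Cflar, which encodes an inhibitor of caspase-8 signalling, had 29 reads in WT fibroblasts and 10 in Lsh-/- fibroblasts (ratio 0.334, 0.145 to 0.705). Its embryo counts were 7 and 17, and no pair of matching LTRs was found in it. chr4:106065376-106069033, in an intron of the deubiquitinase gene Usp24, had 10 and 9 reads in the fibroblasts and 28 and 21 in the embryos. Counts at the Usp24 element were thus near equal in each tissue, and both elements lie opposite to their gene. The interval on the lower-coordinate side of the Usp24 element held 137, 99, 143 and 130 reads in WT and Lsh-/- fibroblasts and WT and Lsh-/- embryos. chr10:100041612-100046394, in an intron of 4930430F08Rik on the opposite strand, had 8 and 20 reads in the fibroblasts (ratio 2.42, 1.02 to 6.35). Its embryo counts were 17 and 21.

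In WT embryos the highest counts were 46, 45 and 44, and this choice by the WT count likewise favours low embryo ratios. The first belonged to chr14:51500001-51504536, which lies 6528 bp from Klhl33, and 19 reads were found there in Lsh-/- embryos (ratio 0.429, 0.237 to 0.746). No pair of matching LTRs was found at this locus. The second was chr7:63202138-63209315, in an intron of the magnesium transporter gene Nipa2 on the opposite strand, with 63 reads in Lsh-/- embryos (1.45, 0.976 to 2.18). The third was chr9:78410684-78415810, in an intron of Slc17a5, the lysosomal sialic acid transporter gene, on the same strand, with 22 reads in Lsh-/- embryos (0.519, 0.296 to 0.885). None of these 3 had a read in WT fibroblasts, and Lsh-/- fibroblasts had 21, 17 and 31 reads there. The WT reads at these elements were thus found in embryos and not in fibroblasts.

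Loci with TGACGTCA in the 5' LTR had more reads in both Lsh-/- libraries than loci without it. The sequence was chosen after the LTRs had been read, and the groups were not compared by a test. In Lsh-/- fibroblasts the median count per locus was 24 with the sequence (515 loci, quartiles 9 and 54.5) and 8 without (275 loci, quartiles 2 and 19). In Lsh-/- embryos the medians were 6 (2 and 14) and 3 (1 and 8). Loci with the sequence had fewer unique positions, with a median of 120 against 186, so that the counts per 100 unique positions lay further apart, at 31.9 and 7.43 in Lsh-/- fibroblasts and 8.01 and 2.67 in Lsh-/- embryos. In WT the same values were 0.216 and 0.173 in fibroblasts and 0.486 and 0.443 in embryos. The groups overlapped, and chr5:6562135-6566642, with 729 reads, was without the sequence. They also differed in CG dinucleotides (median 21 against 17), and the part of CG content, age or primer binding site in the difference was not tested.

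**Figure D4:**
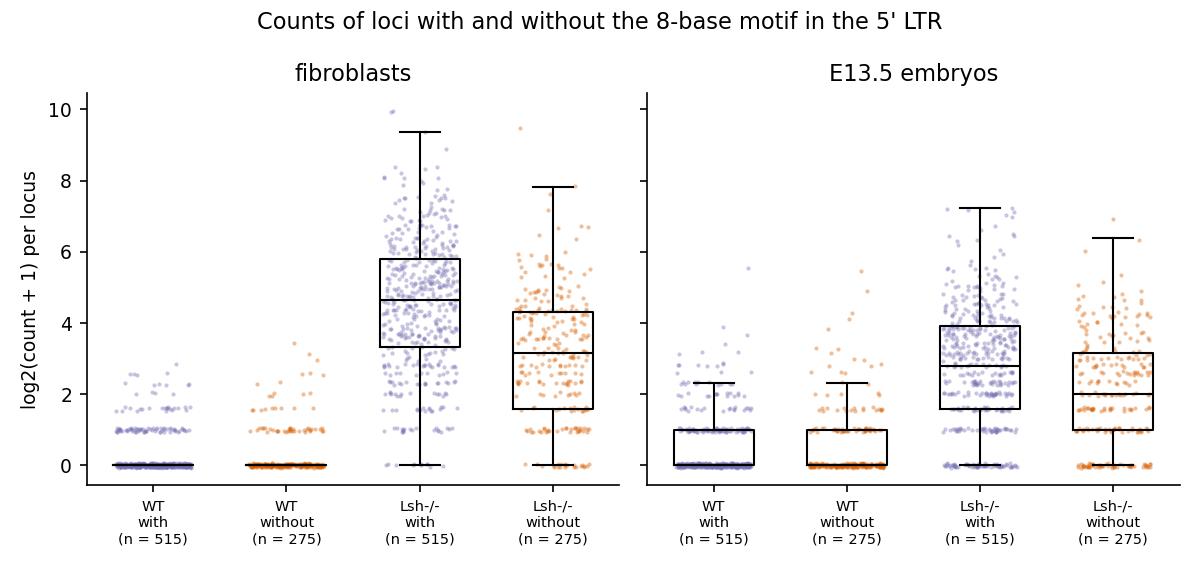
Count per locus as log2(count + 1), not scaled, for loci with (purple) and without (orange) TGACGTCA in the 5' LTR, in WT and Lsh-/- libraries of each tissue. Points are loci with a small random shift, boxes show the median and quartiles and whiskers reach the farthest locus within 1.5 times the box height. Medians are 0 in all 4 WT groups, and in Lsh-/- they are 24 and 8 reads in fibroblasts and 6 and 3 in embryos.

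The form of the primer binding site divided the counts in a similar way. The 419 loci with the most common form held 114 reads in WT fibroblasts and 20666 in Lsh-/- fibroblasts, and the 103 loci with the second form held 43 and 2218. Per 100 unique positions this was 40.7 and 10.5 in Lsh-/- fibroblasts. In Lsh-/- embryos it was 9.62 and 4.35, from 4881 and 921 reads. Both forms were near 0 in WT fibroblasts, at 0.225 and 0.203. As 389 of the 419 loci also held TGACGTCA, the 2 features cannot be told apart in most loci.

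Most elements had more reads in Lsh-/- fibroblasts than in Lsh-/- embryos. Over all 806 loci the scaled total of Lsh-/- fibroblasts was 5.77 times that of Lsh-/- embryos, while that of WT embryos was 1.38 times that of WT fibroblasts. Of 598 loci with at least 10 reads in the 2 Lsh-/- libraries, 543 had the lower scaled count in embryos and 55 the higher. The median log2 ratio of embryos over fibroblasts was -2.57 (-2.71 to -2.40). Most loci passed this minimum through Lsh-/- fibroblasts, where 515 loci had at least 10 reads, against 261 in Lsh-/- embryos. The filter itself therefore favours loci lower in embryos, and the same split over all LTR loci is not given here. Across the 806 loci the Spearman correlation of the 2 Lsh-/- counts was 0.57. The count also followed the number of unique positions, with a Spearman correlation of 0.32 in fibroblasts and 0.37 in embryos over 801 loci, which the 2 libraries share. Of 249 loci tested in both tissues, the limit of 5 was passed by 201 in the fibroblast pair, by 132 in the embryo pair and by 119 in each of these pairs. A tested locus without a WT read passes this limit by construction, and the same counts over all LTR loci are not given here. A further 275 loci were tested in fibroblasts alone, 31 in embryos alone, and 251 in neither.

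A few elements went against this order. chr14:53377587-53384675 had 2 reads in Lsh-/- fibroblasts and 45 in Lsh-/- embryos, with none in either WT library. chr11:79554994-79559381 had 2 and 38 in these libraries, with 3 and 8 in WT fibroblasts and WT embryos. chr11:100524213-100530835, in an intron of Zfp385c, had 1 and 17, with none in WT. At the other end, chr4:7023903-7029239 had 151 reads in Lsh-/- fibroblasts and chr8:50920037-50925925 had 131, and Lsh-/- embryos had 0 at both, as at the chromosome 1 element with 986. A count of 0 allows up to 3 reads at each. The first 3 were thus read mostly in embryos, and the last 3 had no read outside Lsh-/- fibroblasts except 2 WT embryo reads at the chromosome 8 element.

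**Figure D5:**
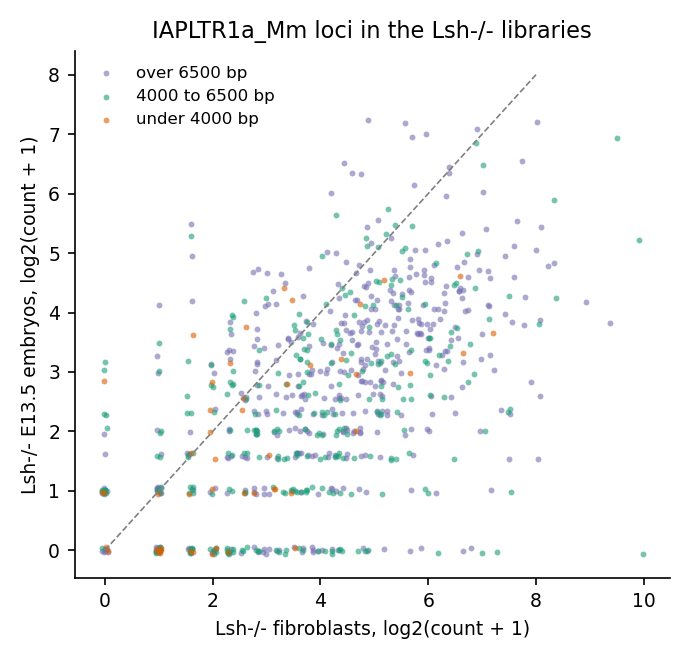
Count of each of the 806 loci in Lsh-/- fibroblasts (x axis) and Lsh-/- E13.5 embryos (y axis), both as log2(count + 1), not scaled, with a small random shift; colours give the width class and the dashed line marks equal counts. Most loci lie below the line, and the point at the lower right is the locus with 986 reads in fibroblasts and 0 in embryos.

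Reads around the elements address whether reads on the elements came with reads on their surroundings. The authors counted reads in intervals 10 kb away from each element, and the upstream tables were found to hold the lower-coordinate side whatever the strand. This was checked on the LINE tables, with LINE loci of at least 20 reads in Lsh-/- fibroblasts that lay near another LINE locus. In all 491 cases where such a locus lay wholly between 10 and 11 kb on the lower side, the interval held at least as many reads, against 77.9% of cases between 11 and 12 kb. The intervals were therefore read as the 1 kb from 10 to 11 kb, also around LTR loci. The study's text describes them instead as being as wide as the repeat itself, and if so the flanking totals would cover as many bases as the elements do. In fibroblasts the intervals around IAPLTR1a_Mm loci held 7365 reads in WT and 8952 in Lsh-/- (ratio 1.18, 1.14 to 1.21). In embryos they held 14653 and 14465 (1.02, 1.00 to 1.05). The flanking totals thus differed far less between genotypes than the element totals did.

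Of 98 flanking intervals with at least 10 reads in the fibroblast pair, 17 lay above 5 (17.3%, 11.1 to 26.0), where 12.7% of 1562 intervals around all LTR loci did. In embryos 3 of 117 did (2.56%, 0.876 to 7.27), where 3.50% of 1973 did. Both intervals include the share of all LTR loci. The median log2 fold change of the intervals was 0.16 in fibroblasts (-0.05 to 0.40) and -0.08 in embryos (-0.30 to 0.18). Of the 17 intervals in fibroblasts, 9 contained another listed LTR or LINE locus. The highest was 10 kb beyond chrX:64011456-64016053, with 0 and 97 reads in WT and Lsh-/- fibroblasts, and held a listed Lx7 locus of the LINE-1 family, whereas the element itself had 0 and 11. The next, on the lower-coordinate side of chr5:68804234-68809129, had 0 and 56 reads and no listed repeat, and its element had 0 and 275. Around the 435 loci above 5 in fibroblasts, which held 60 and 27294 reads, the lower side held 881 and 942 and the higher side 2258 and 3328.

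Other IAP groups were alike in some measures and differed in others, and no test of these differences was possible. IAPLTR1_Mm, the nearest relative by name with 682 loci, held 603 reads in WT and 56102 in Lsh-/- fibroblasts, a ratio of 90.1 (83.1 to 97.8) beside the 92.5 of IAPLTR1a_Mm. In embryos its ratio was 11.8 (11 to 12.6) beside 11.6. Per 100 unique positions IAPLTR1_Mm had 77.9 reads in Lsh-/- fibroblasts and IAPLTR1a_Mm had 20.5. Their median counts per locus in Lsh-/- fibroblasts were 19.5 and 17, with highest counts of 2261 and 986. The median number of unique positions was 75 in IAPLTR1_Mm and 137 in IAPLTR1a_Mm. The 2 groups thus had close ratios and median counts, and differed in pooled reads per unique position. Identical LTR pairs made up 79.1% in IAPLTR1_Mm, 51.3% in IAPLTR1a_Mm and 11.2% in the 752 loci of the IAPLTR2 group, whose names begin with IAPLTR2. The IAPLTR2 group had ratios of 13.8 (12.9 to 14.7) in fibroblasts and 2.65 (2.53 to 2.77) in embryos, and 2.96 reads per 100 unique positions in Lsh-/- fibroblasts. TGACGTCA was present in 80.5%, 65.2% and 5.67% of the LTRs of the 3 groups, in the same order.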

How the data were processed

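The authors prepared paired-end, strand-specific (dUTP) libraries, from total RNA per the labels and as mRNA-seq per the methods, mapped the reads to mm9 with TopHat 1.4.0 without mismatches, kept unique reads and joined them to the repeatmasker annotation. edgeR is named in the submitters' processing notes. The deposited values are raw counts per repeat locus or flanking interval, in 6 tables per library. Whether a pair counts as 1 or 2, the use of strand in counting, the read length and the number of pooled embryos are not given in the sources used here. A locus not listed in a library was given a count of 0. TMM factors (edgeR 4.0.16, R 4.3.3) were computed over the intervals around LINE-1 loci of each pair. Fold changes used a prior count of 0.125 and at least 10 counts in the pair, and the script was tested on simulated data. With 1 library per group no test across replicates was possible. Sequences came from NCBIM37 (mm9), whose chromosomes hold 801 of the 806 loci. LTR pairs were found by aligning the 2 ends of a locus (edlib 1.3.9.post1), with at least 85% identity. Genes were the protein-coding genes of GENCODE M1. Promoters came from RefSeq (GRCm38). Named loci were, per tissue, the 6 with the largest count in the pair above 5, the 3 with the largest WT count, up to 3 with the largest count below 0, the 2 with the largest count in each width class, and the 2 highest flanking intervals above 5 on each side, and over both tissues the 3 highest and 3 lowest ratios of the Lsh-/- libraries. The members, limits and lists were chosen with earlier results of these data known. Alternatives were another prior count, another scaling, other count minimums, other limits and left-out loci. Intervals cover counting error or the spread over loci only.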

Additional observations from a re-analysis of the deposited data

Results flagged for a closer look

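Of the named loci tested in both tissues, 3 had a higher scaled count in Lsh-/- in one tissue and a lower one in the other. The difference between tissues was not tested, since each group has 1 library. At chr1:58806361-58808898, in an intron of Cflar, the log2 fold change was -1.57 in fibroblasts (29 and 10 reads in WT and Lsh-/-) and 1.32 in embryos (7 and 17 reads). At chr14:51500001-51504536 it was 7.38 in fibroblasts (0 and 21 reads) and -1.22 in embryos (46 and 19 reads). At chr9:78410684-78415810, in an intron of Slc17a5, it was 7.94 in fibroblasts (0 and 31 reads) and -0.94 in embryos (44 and 22 reads). The last 2 fibroblast values rest on a WT count of 0 and would be lower with any WT read. No pair of matching LTRs was found at the loci on chromosomes 1 and 14.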

How the results depend on the processing

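No leave-one-out was possible, since each group has 1 library. No paired analysis was possible because the WT and Lsh-/- groups share fewer than 2 replicate numbers. The share of tested IAPLTR1a_Mm loci above 5 was 83.0% in fibroblasts and 53.9% in embryos, and the medians were 7.31 and 6.37. With a prior count of 1 the shares were 40.6% and 12.9% and the medians 4.68 and 3.61. With a count of 0 set to 3 they were 19.1% and 5.0%, and 3.50 and 2.79. Without a count minimum they were 71.4% and 41.0%, and 6.45 and 4.11. With at least 50 counts they were 95.2% and 76.0%, and 9.02 and 6.66. A limit of 1 gave 98.7% and 93.6%. In fibroblasts the LTR table total as library size gave 78.1% and a median of 6.81, and the total over the 6 tables gave 88.0% and 7.68. These scalings shift every fibroblast fold change by -1.32 and 0.68 and every embryo one by -0.24 and -0.01 on the log2 scale. The flanking shares of 17.3% and 2.56% became 2.04% and 0% with the prior of 1, 0% in both tissues with 0 set to 3, 4.88% and 0% with at least 50 counts, and 29.6% and 12.8% with the limit of 1. The embryo share was 9.21% without a count minimum. The fibroblast share was 10.4% without intervals that overlap a listed LTR or LINE locus. The fibroblast difference between the 2 larger width classes, 0.21, reversed to -0.28 with at least 50 counts and kept its sign otherwise. The embryo difference, 1.75, ranged from 0.04 to 2.02, and its interval lay above 0 over all listed loci and with at least 100 unique positions. Chosen after seeing the data, a minimum of 100 unique positions in place of the count minimum gave 72.7% and 41.3% with medians of 6.58 and 4.11, and at least 10 counts in the other tissue's pair gave 43.9% and 4.56 in embryos. The prior count and count minimum set the size of these values by construction, because most loci had no WT read. Median unique positions were 88.5, 70.0 and 94.0 from the shortest to the longest class with 36 bases and 278, 222 and 279 with 75 bases.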

Other observations

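The 63 loci on chromosome X held 18 and 1838 reads in WT and Lsh-/- fibroblasts, a ratio of scaled totals of 98.9 (62.4 to 167), and 19 and 506 in the embryos (27.7, 17.5 to 46.3). The 7 loci on chromosome Y and its unplaced sequence held 2 and 175 reads in the fibroblasts and 8 and 99 in the embryos. Intervals around LINE loci on chromosome Y held 12 and 5402 reads in the fibroblasts and 19973 and 20654 in the embryos. The genotypes therefore cannot be compared at the chromosome Y loci in fibroblasts. Whether the fibroblast pair also differed in chromosome X content was not tested.

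A rarer form of the primer binding site, present in 25 loci with a median width of 4544 bp, had 37.8 reads per 100 unique positions in Lsh-/- fibroblasts and 7.06 in Lsh-/- embryos, from 1439 and 269 reads. Of the 1439 reads, 729 came from chr5:6562135-6566642.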
